A study of Mus musculus with 74 samples.

Results

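The mouse genome carries its KRAB zinc finger protein (KRAB-ZFP) genes in large tandem arrays. The peaks described here are those that KRAB-ZFP ChIP-seq placed in 3 windows around such arrays. The windows are wider than the arrays. On chromosome 4 the last profiled KRAB-ZFP gene, Zfp933, ends at 147222475, and other genes follow it in the window. Where a result below speaks of a cluster, the whole window is meant. A peak was a member when the midpoint of its 200 bp window fell within chr2:174500000-178000000, chr4:144000000-148500000 or chr13:65000000-68500000 of the mm9 assembly. Of 53255 peaks in the deposited list, 329 did so, and 328 of these came from 47 of the 67 KRAB-ZFPs whose names could be matched to a sample label. The remaining member belonged to a name that matched no label and was left out of every comparison. The members were divided into 100 peaks of 23 KRAB-ZFPs in the chromosome 2 window, 127 peaks of 37 in the chromosome 4 window and 101 peaks of 35 in the chromosome 13 window.

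Each KRAB-ZFP was profiled in 1 sample, so the protein is the unit of every comparison and no value carries a replicate error. The proteins were expressed with an epitope tag from stably integrated vectors, in F9 cells, a mouse embryonal carcinoma line, or in mouse embryonic stem (ES) cells of the B6 strain. Pools of drug-resistant clones were used for immunoprecipitation, so the profiles describe tagged proteins expressed from a vector in addition to whatever the cells made themselves. The labels gave 18 F9 samples with an antibody to FLAG, 31 with an antibody to HA, 10 F9 samples with HA that used a ChIP of HA-tagged Gm14296 as control, 9 ES cell samples with HA, and 6 input or control samples, 74 in all. Of the 31 F9 HA samples, 30 had a name in the peak list. All 19 profiled proteins encoded in the chromosome 2 window came from 2 of these ChIP arrangements, the ES cells and the F9 cells with the Gm14296 control, so for them the site of encoding and the arrangement cannot be told apart. Gm14296 is itself encoded in the chromosome 2 window. The peak list gives no library sizes, so the depth of each library is unknown, and tag counts are compared only within a protein.

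KRAB-ZFPs bind DNA through arrays of C2H2 zinc fingers, and their KRAB domain recruits the corepressor KAP1, which brings the histone methyltransferase SETDB1 and the repressive mark H3K9me3. Their genes multiply by local duplication, so that a cluster holds many recent copies of the same genes together with pseudogenes and the DNA lying between them. KRAB-ZFPs are best known for binding retrotransposons, but KAP1 and H3K9me3 are also well known over zinc finger genes themselves. Peaks inside the clusters therefore bear on whether a KRAB-ZFP bound its own gene, the genes of its relatives, or DNA that was copied along with them.

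Many of the members were copies of one another, and the sequences that the results turn on are given first, as read from mm9. The Gm14406 site on chromosome 2 is the copy with the highest fold enrichment (chr2:176965014-176965213, plus strand), and beside it stands a copy of the same DNA in which no peak was called (chr2:177071557-177071754, minus strand). Capitals in these 2 sequences mark the 4 positions at which all 16 called copies in the chromosome 2 window shared a base that none of the 7 uncalled copies there had. Counted from 1 at the first base of the called copy, these were T28G, G132A and T164G, with the called base first, and position 93, at which the called copies had G and the uncalled copies A or C. The Zfp808 site on chromosome 2 (chr2:175808079-175808278), the Gm14419 site on chromosome 4 (chr4:146505430-146505629) and the Gm13157 site on chromosome 4 (chr4:146135286-146135485) are the copies with the highest fold, and capitals mark the positions at which at least 1 other called copy differed. The Gm13152 site on chromosome 4 (chr4:146207090-146207289) lies immediately upstream of a pseudogene, and its capitals mark the 15 positions that separated called from uncalled copies. The last 4 sequences are on the plus strand.
Gm14406 chromosome 2 site, called copy: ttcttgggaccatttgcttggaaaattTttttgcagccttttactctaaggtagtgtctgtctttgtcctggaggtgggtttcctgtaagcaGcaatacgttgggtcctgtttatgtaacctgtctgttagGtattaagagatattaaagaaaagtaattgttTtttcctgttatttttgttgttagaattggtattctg
Gm14406 chromosome 2 site, copy without a peak: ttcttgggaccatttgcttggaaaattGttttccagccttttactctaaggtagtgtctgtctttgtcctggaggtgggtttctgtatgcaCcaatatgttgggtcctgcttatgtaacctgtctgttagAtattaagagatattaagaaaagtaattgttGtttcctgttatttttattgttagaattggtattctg
Zfp808 chromosome 2 site: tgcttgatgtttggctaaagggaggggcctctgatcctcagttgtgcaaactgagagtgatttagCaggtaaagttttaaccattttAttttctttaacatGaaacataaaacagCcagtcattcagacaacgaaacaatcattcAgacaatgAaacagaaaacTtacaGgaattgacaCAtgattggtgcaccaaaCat
Gm14419 chromosome 4 site: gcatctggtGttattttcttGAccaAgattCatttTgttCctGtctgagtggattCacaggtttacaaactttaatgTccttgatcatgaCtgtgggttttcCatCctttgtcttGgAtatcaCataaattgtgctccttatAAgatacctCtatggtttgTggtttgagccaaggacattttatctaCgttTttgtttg
Gm13157 chromosome 4 site: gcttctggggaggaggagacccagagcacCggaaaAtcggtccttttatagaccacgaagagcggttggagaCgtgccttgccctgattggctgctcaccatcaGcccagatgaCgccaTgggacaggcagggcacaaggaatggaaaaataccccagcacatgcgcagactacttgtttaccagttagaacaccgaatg
Gm13152 chromosome 4 site: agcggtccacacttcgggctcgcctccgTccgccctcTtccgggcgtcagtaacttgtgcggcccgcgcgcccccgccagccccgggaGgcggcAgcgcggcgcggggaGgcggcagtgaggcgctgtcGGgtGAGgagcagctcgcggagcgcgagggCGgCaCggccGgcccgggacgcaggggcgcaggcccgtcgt

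The windows held more peaks than their share of the genome. The windows hold 0.4217% of the mm9 bases that are not N and held 0.619% of all peaks, a ratio of 1.47. The ratio was 1.50 on chromosome 2, 1.46 on chromosome 4 and 1.45 on chromosome 13. Expressed as density, there were 30.3 peaks per Mb of sequence on chromosome 2, 29.5 on chromosome 4 and 29.3 on chromosome 13, against 20.2 over the genome. Neighbouring stretches of the same length were variable. They held 19.7 peaks per Mb before and 20.9 after the chromosome 2 window, 11.7 before and 24.9 after the chromosome 4 window, and 28.6 before and 14 after the chromosome 13 window. The stretch before the chromosome 13 window was thus nearly as dense as the window itself, and it held 4 zinc finger genes of its own. By ChIP arrangement, the 3 windows held 88 of 9122 peaks in the ES cells (0.965%), 76 of 12683 in F9 cells with HA (0.599%), 115 of 20728 with FLAG (0.555%) and 49 of 10478 with the Gm14296 control (0.468%). The peaks of the ES cells, which were called without an enrichment threshold, thus had the highest share.

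**Figure D1:**
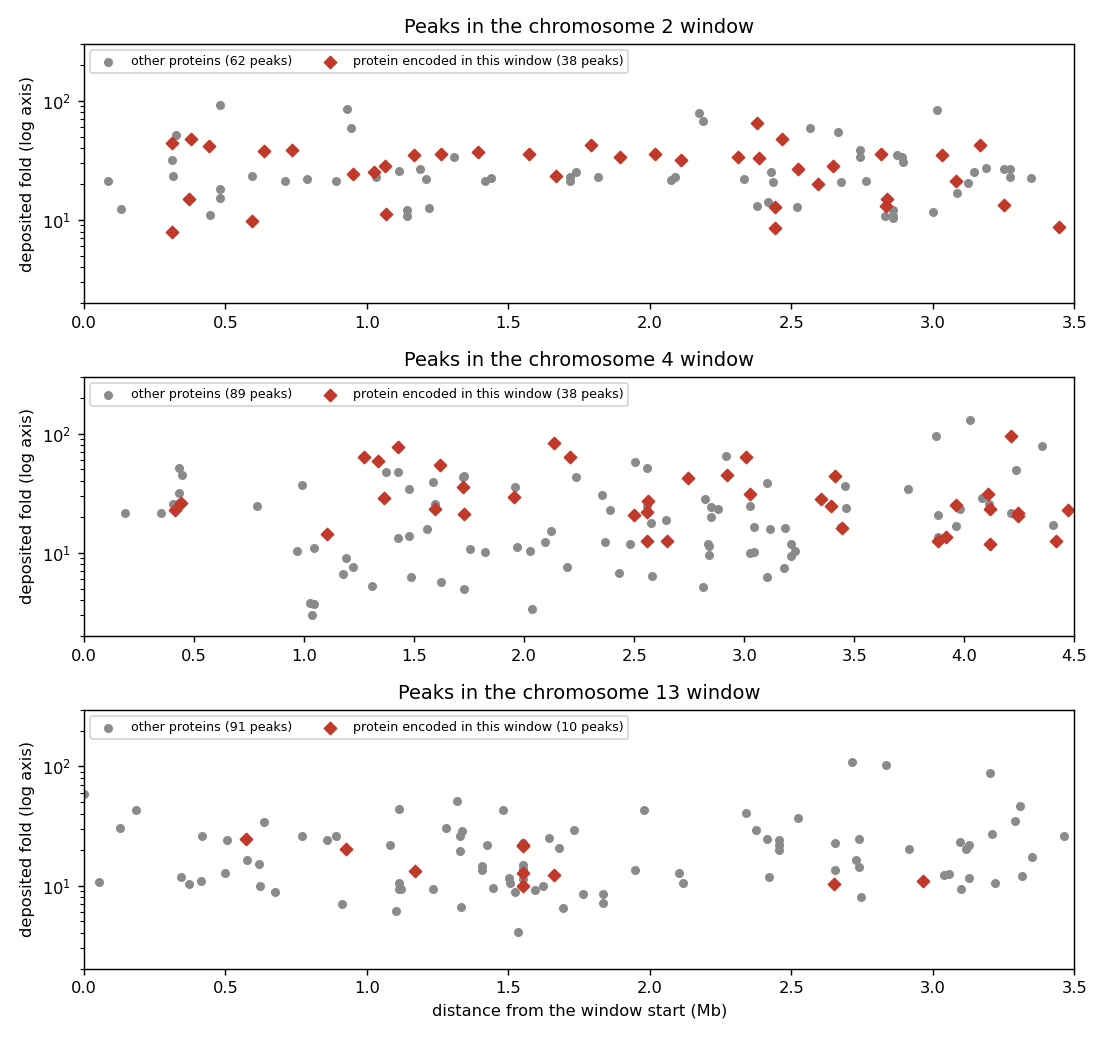
Positions of the 328 member peaks along the 3 windows, with distance from the window start in Mb on the horizontal axis and the deposited fold enrichment on a logarithmic vertical axis. Red diamonds are peaks of KRAB-ZFPs encoded in that window (38, 38 and 10) and grey points those of other proteins, the 2 kinds are interspersed, and the highest fold, 129.56, was on chromosome 4.

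The peaks nearest to the limits of the windows were close on chromosome 13 and farther apart elsewhere. On chromosome 13 the first member was a Zfp617 peak with a fold of 59 at 444 bp inside the limit, and the nearest peak outside, of Zfp457 with a fold of 11.22, lay 2532 bp beyond it. On chromosome 2 the nearest peaks to the first limit, both of Gm13251, lay 84901 bp inside (fold 21.35) and 8259 bp outside (fold 32.73), and those at the last limit lay 52787 bp inside (Gm14295, fold 8.8) and 148869 bp outside (Gm13152, fold 40.9). On chromosome 4 the distances were 184884 bp inside (Gm14406, fold 21.38) and 5458 bp outside (Gm13152, fold 25.45) at the first limit, and 29446 bp inside (Gm13251, fold 23.05) and 11424 bp outside (Gm13152, fold 20.9) at the last. The last limit on chromosome 13 lay between 2 Gm14406 peaks, 38527 bp inside (fold 26.25) and 39158 bp outside (fold 25.27).

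KRAB-ZFPs did not place a detectably larger share of their peaks in the window that encodes them than other KRAB-ZFPs did. Of the 50 profiled proteins with a gene in the windows, 22 had a peak in their own window: 7 of 19 on chromosome 2, 10 of 17 on chromosome 4 and 5 of 14 on chromosome 13. Among the proteins encoded outside the same window, 14 of 45, 25 of 47 and 29 of 50 had a peak there. A further 3 proteins had no position in the annotation and were left out of this comparison. The mean share of a protein's peaks in the chromosome 2 window was 0.0849% ± 0.139 (SD, n = 19) for proteins encoded there and 0.173% ± 0.453 (SD, n = 45) for others. In the chromosome 4 window the shares were 0.289% ± 0.401 (SD, n = 17) and 0.281% ± 0.411 (SD, n = 47), and in the chromosome 13 window 0.272% ± 0.593 (SD, n = 14) and 0.232% ± 0.314 (SD, n = 50). In each window the difference was smaller than the spread between proteins: -0.0880 percentage points on chromosome 2 (two-sided permutation test, p = 0.461), 0.00811 on chromosome 4 (p = 0.945) and 0.0396 on chromosome 13 (p = 0.754), with an adjusted p of 0.945 for each over the 3 windows. Taken over the 3 windows in 1 permutation test, the difference was -0.0196 points (p = 0.758). For the 28 proteins with 0 peaks in their own window, the upper limit that a count of 0 allows was 0.625% to 5.77%, above the mean of either group in each window, so a small preference was not detectable for these proteins. These limits, and the Wilson intervals given below, cover counting error only.

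**Figure D2:**
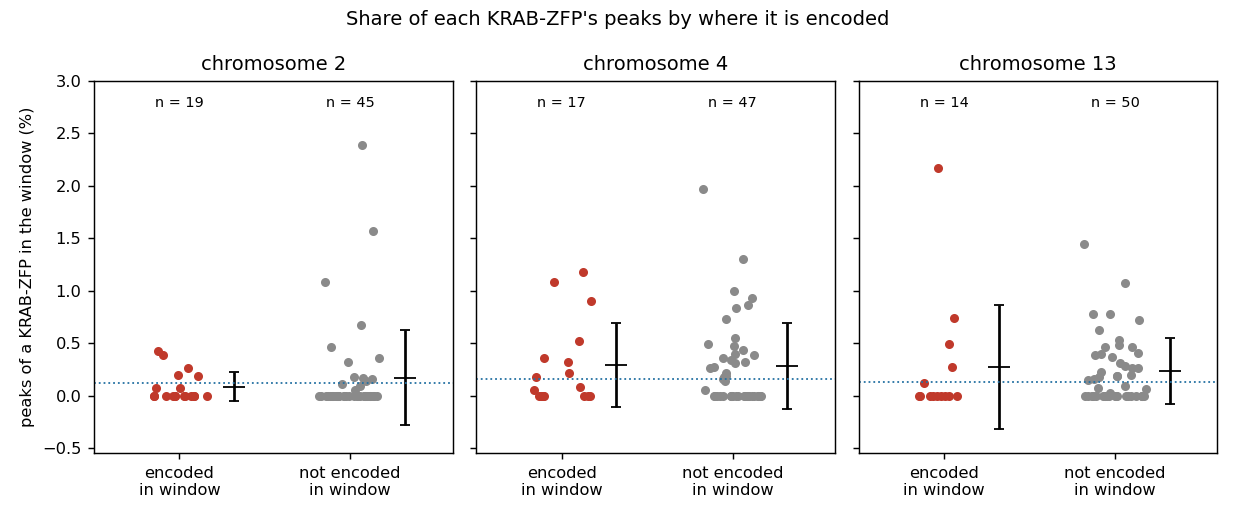
Share of each KRAB-ZFP's peaks that fell in the chromosome 2, 4 and 13 windows, in percent, for proteins encoded in that window and for those not encoded there; each point is 1 protein, bars give mean ± SD and the dotted line is the window's share of the mm9 bases that are not N. The groups overlap in every window, and the highest share, 2.39%, belonged to Zfp808 on chromosome 2, which is encoded outside the windows.

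Viewed by where the proteins are encoded, every group had peaks in all 3 windows. On chromosomes 2, 4 and 13 the windows hold 0.126%, 0.164% and 0.132% of the mm9 bases that are not N. The chromosome 2-encoded proteins had 38 peaks in the chromosome 2 window, 50 in the chromosome 4 window and 49 in the chromosome 13 window. These were 0.194%, 0.255% and 0.25% of their 19600 peaks. The chromosome 4-encoded proteins had 24, 38 and 20 peaks in these windows (0.132%, 0.21% and 0.11% of 18121). The chromosome 13-encoded proteins had 1, 14 and 10 (0.0225%, 0.315% and 0.225% of 4446). For the 14 proteins encoded elsewhere the counts were 32, 22 and 17 (0.39%, 0.268% and 0.207% of 8196). The single chromosome 2 peak of the 14 chromosome 13-encoded proteins was out of 4446 peaks, the lowest pooled share of all (0.0225%). It lay below that window's share of the bases, as did the 0.11% of the chromosome 4-encoded proteins on chromosome 13. The pooled shares were not tested against the shares of the bases.

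The own-window shares rested on few proteins. On chromosome 2, Gm14406 alone had 24 of the 38 peaks of proteins encoded there, or 0.422% of its 5685 peaks (95% Wilson interval 0.284 to 0.627). Gm8898 had 4 of 1517 (0.264%, 0.103 to 0.676), Gm14401 had 3 of 1541 (0.195%, 0.0662 to 0.571) and Gm14419 had 3 of 3906 (0.0768%, 0.0261 to 0.226). On chromosome 4, the highest own-window shares among proteins with at least 3 peaks there belonged to Gm13247 (3 of 277, 1.08%, 0.369 to 3.14) and Gm13157 (4 of 443, 0.903%, 0.352 to 2.30). Gm13154 followed with 5 of 1561 (0.320%), Gm13152 with 11 of 5189 (0.212%) and Gm13251 with 6 of 3300 (0.182%). Most of the Gm13251 peaks lay beyond Zfp933, the last profiled KRAB-ZFP gene of the window. The intervals of Gm13247 and Gm13157 overlapped each other, and the order of these 2 proteins is not resolved. On chromosome 13, Zfp457 had 5 of its 1812 peaks in its own cluster (0.276%, 0.118 to 0.644), and no other protein encoded there had more than 2. The chromosome 13 mean was raised by Zfp874b, whose 2 peaks were out of only 92 (2.17%, 0.598 to 7.58). Of the 10 peaks in this group, 4 lay at 1 locus called in 9 proteins, and without that locus the difference turned to -0.0592 points (adjusted p = 0.827, permutation test).

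In every window the highest share among proteins with at least 3 peaks belonged to a protein encoded outside it. Such proteins are the larger group, with 45, 47 and 50 of the 64 placed proteins for chromosomes 2, 4 and 13. Zfp808, encoded on chromosome 13 before the window, had 13 of its 544 peaks in the chromosome 2 window (2.39%, 1.402 to 4.05), and Zfp617, encoded on chromosome 8, had 12 of 764 (1.57%, 0.901 to 2.73). Gm13247, encoded on chromosome 4, had 3 of 277 there (1.08%). In the chromosome 4 window, Zfp458 had 4 of 203 (1.97%, 0.769 to 4.96), Gm14420 had 5 of 383 (1.31%, 0.559 to 3.02) and Zfp46 had 3 of 300 (1.00%). Gm13247, encoded in that window, ranked between the last 2 (1.08%, 0.369 to 3.14). Its interval overlapped that of Zfp458, so first place is not resolved. The 3 Zfp46 peaks lay beyond the last profiled KRAB-ZFP gene of the window. The most peaks there belonged to Gm14419, a chromosome 2-encoded protein, with 17 of 3906 (0.435%, 0.272 to 0.696). In the chromosome 13 window, 4 chromosome 2-encoded proteins profiled in ES cells had the highest shares among proteins with at least 3 peaks: Zfp931 with 5 of 346 (1.45%), Gm4631 with 4 of 371 (1.08%), Gm14420 with 3 of 383 (0.783%) and Gm14443 with 3 of 480 (0.625%). All 15 of these peaks had a deposited false discovery rate above 5%, from 8.4% to 51.0%, whereas 41 of the 88 members of the ES cells were at or below 5%. The most peaks there were of Gm14406, with 11 of 5685 (0.193%), and of Zfp961, encoded on chromosome 8, with 7 of 1457 (0.480%).

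The rank of a member by fold among all peaks of its protein was compared next. A percentile within a protein sets fold on a common scale, although it still depends on which peaks passed the settings of that protein. Proteins with at least 3 peaks in their own window had a mean fold percentile of 53.0 ± 11.7 (SD, n = 11) there. Proteins with at least 3 peaks in another window had 42.9 ± 15.6 (SD, n = 23). The difference of 10.0 percentile points did not pass the test (two-sided permutation test, p = 0.0684), which took the groups as independent although 10 proteins were in both. Within these 10 proteins the own window was 9.24 points higher (SD 14.3, higher in 6 and lower in 4, exact sign-flip permutation test, p = 0.0801), a comparison chosen after the data were seen.

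None of the 50 KRAB-ZFPs encoded in the windows had a peak on its own gene, taken as the gene body and 1 kb around it. The nearest own peak lay 5163 bp away for Gm13139, 38760 bp for Gm14406 and 119047 bp for Gm13157, and the median over the 50 proteins was 2476950 bp. Peaks on these genes were rare for any 1 protein: of the 3300 pairs of a gene and another protein, 34 had a peak (1.03%), so the count of 0 own peaks among 50 does not set the proteins apart. These 34 pairs fell on 19 of the 50 genes. Examples were 2610305D13Rik, a zinc finger gene on chromosome 4 with peaks of 6 proteins, Gm13235 with peaks of Gm14419, Gm8898 and Zfp931, and Gm14406 with peaks of Gm13225, Zfp709 and Zfp935. Among all 64 proteins with a position, 5 had peaks on their own gene, and all 5 are encoded outside the windows: Zkscan17 had 6, and Zfp46, Zfp617, Zfp882 and Zfp961 had 2 each. The study's sequence list marks which reading frames were recoded for synthesis. All 5 of these proteins were among the 8 that had not been recoded, and only 1 of the 8, Zfp458, is encoded in the windows. A vector that carries the natural sequence adds copies of the gene's own DNA to the cells, which a recoded vector does not, and whether reads from the vector formed these 5 sets of peaks was not tested.

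Members on chromosomes 2 and 13 lay mostly between genes, and those on chromosome 4 less so. On chromosome 2, 90 of 100 peak summits were intergenic, 9 intronic and 1 in a coding exon, against 58.9% intergenic, 34.3% intronic and 2.59% coding over all peaks. On chromosome 13 the counts were 80 intergenic, 18 intronic, 2 coding and 1 in an untranslated region. On chromosome 4 only 55 of 127 were intergenic, and 64 were intronic, 3 coding and 5 in exons of noncoding transcripts. Many peaks on chromosome 4 lay in 3 long noncoding genes. Gm16889 spans 474 kb and held 21 peaks of 14 proteins, Gm17317 held 12 peaks of 10 proteins and Gm17452 held 8 peaks of 8 proteins. The first 2 of these genes overlap, so part of their peaks are the same.

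Few members contained a sequence that encodes a zinc finger, 4 of 328 (1.22%), though this share was above that of all peaks, and the clusters differed. The 200 bp window of a peak contained a whole finger-encoding sequence in 0 of 100 peaks on chromosome 2, 3 of 127 on chromosome 4 (2.36%) and 1 of 101 on chromosome 13 (0.990%), against 0.419% of all peaks. Tiles of 200 bp laid along the windows contained one in 2.90%, 1.23% and 2.72%, and tiles over the genome in 0.561%. The 4 peaks were of Gm14401 in an intron of 2410141K09Rik (chr13:66532556-66532755, fold 4.09), of Zfp457 (chr4:146096012-146096211, fold 12.33), of Zfp458 in an intron of Gm17452 (chr4:146367585-146367784, fold 12.42) and of Zfp935 in an intron of 2610305D13Rik (chr4:147045382-147045581, fold 10.05). None of these 4 lay in an annotated coding exon of a zinc finger gene, and the last 3 were copies of one another. Such an exon held 2 other members, both on chromosome 13 (1.98% of 101), against 0.140% of all peaks and 1.42% of the tiles of that window. Zinc finger genes as a whole, introns and 1 kb flanks included, carried a peak in 5 of 39 cases on chromosome 2, 13 of 19 on chromosome 4 and 7 of 33 on chromosome 13. Annotated pseudogenes did so in 1 of 44, 14 of 61 and 0 of 5. For other protein-coding genes the counts were 2 of 11, 10 of 44 and 3 of 25, and for lincRNA genes 0 of 1, 4 of 5 and 3 of 10. Gene length was not taken into account, and the classes were not tested against each other. The zinc finger genes with the most peaks were 2610305D13Rik with 6 and Gm13242 and Casz1 with 5 each on chromosome 4, and on chromosome 13 Zfp953 with 4 and Zfp456, Zfp748 and A530054K11Rik with 3 each, where Zfp953 and Zfp456 overlap and share peaks. On chromosome 2 Gm14406 had 3, and Gm14295, Gm14418, Gm14322 and Gm14326 had 1 each. The coding-exon peak on chromosome 2, of Zfp961 (chr2:176687418-176687617, fold 67.37), lay in Gm14296, the gene of the control protein. The annotation used did not class Gm14296 as a zinc finger gene, so it is not among these.

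Summits close to a transcript start were also unequal between the clusters. They lay within 1 kb of an annotated start in 0 of 100 peaks on chromosome 2, 27 of 127 on chromosome 4 (21.3%) and 6 of 101 on chromosome 13 (5.94%), against 11.2% of all peaks. The corresponding shares of tiles were 8.25%, 9.54% and 4.97%. For the 25 proteins with at least 5 members the shares were compared inside and outside the windows. A mean of 7.81% of peaks inside and 8.15% outside lay near a start, and this difference of -0.344 points (SD 7.34, higher inside in 10 proteins and lower in 15) did not pass the test (two-sided sign-flip permutation test over proteins, adjusted p = 0.816 over 4 measures). The finger-encoding share was 1.53% inside and 0.465% outside, higher inside in 3 proteins and lower in 19 (adjusted p = 0.377, the same permutation test). The 4 finger-encoding members had folds of at most 12.42, so none was left under the strictest peak settings and no comparison could be made there.

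The members lay in duplicated DNA more often than the other peaks of the same proteins. A peak was called multi-copy when the median genome copy number of its 24-base words was 2 or more, which held for 41.7% of all peaks. It held for 97.0% of members on chromosome 2, 69.3% on chromosome 4 and 81.2% on chromosome 13. The windows themselves are rich in such sequence: 85.6%, 48.8% and 67.2% of their tiles were multi-copy, against 19.1% of tiles over the genome. Over the 25 proteins with at least 5 members, 79.5% of peaks inside the windows and 42.2% of those outside were multi-copy. This difference of 37.4 points (SD 19.6) was positive in 25 of 25 proteins (sign-flip permutation test, adjusted p = 4e-05, from a raw p of 1e-05, the smallest the resampling can give). Zfp458 had the widest gap, with 80% of 5 members and 11.6% of 198 other peaks, and Zkscan17 had 85.7% of 7 and 20.0% of 1100. Gm14406, whose targets are multi-copy almost everywhere, had the narrowest, with 100% of 38 and 94.99% of 5647. The difference depended on the minimum copy number. With a minimum of 10 copies the difference was 8.10 points (adjusted p = 0.138), and with 100 copies it was -7.03 (adjusted p = 0.126). How much of the difference follows from the content of the windows alone was not tested.

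**Figure D3:**
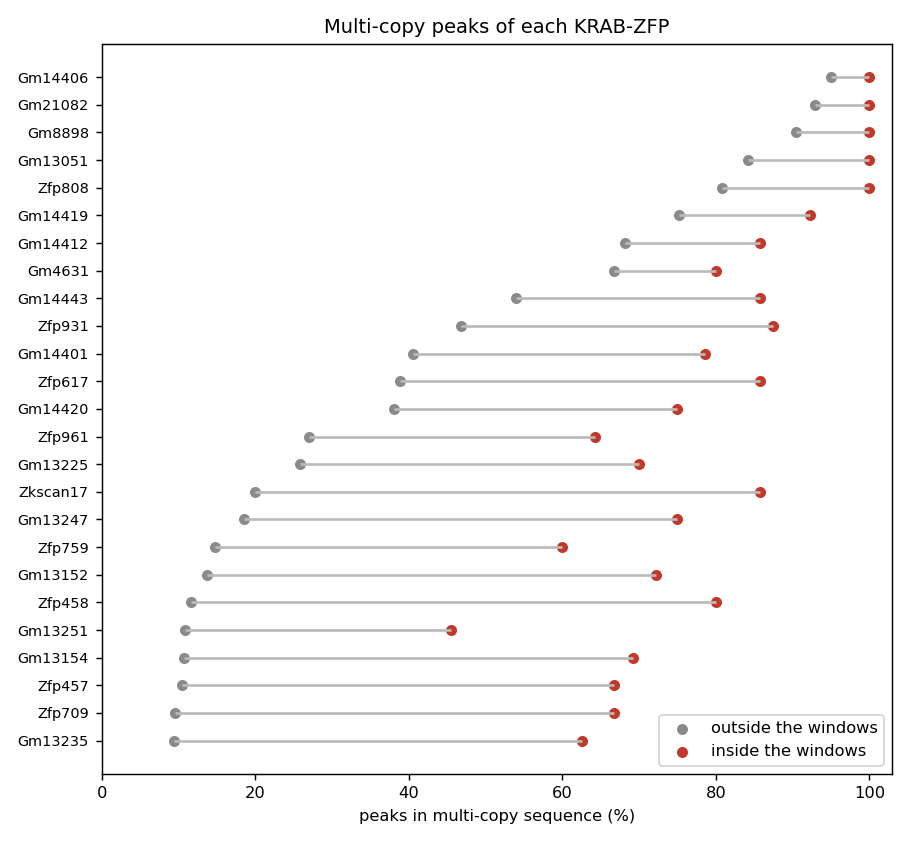
Percent of peaks in multi-copy sequence for each of the 25 KRAB-ZFPs with at least 5 members, outside the windows in grey and inside in red, joined by a line for each protein. Every red point lies to the right of its grey point, from 94.99% and 100% for Gm14406 to 9.42% and 62.5% for Gm13235.

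Fold enrichment did not differ detectably between members and the other peaks of the same protein. The mean over the 25 proteins of the median log2 fold was 4.12 inside and 4.25 outside the windows. Their difference of -0.13 (SD 0.34) was positive in 10 proteins and negative in 15 (sign-flip permutation test, adjusted p = 0.138). The lowest differences were those of Zfp808, with a log2 fold of 4.72 inside and 5.75 outside, and of Gm14420, with 2.31 and 3.32. Gm14412 (5.44 and 5.06) and Gm14406 (5.03 and 4.71) had the highest.

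Alignment of the members to each other grouped them into 153 sequence families, with a minimum identity of 80% over at least 100 bases. Of the 328 members, 214 (65.2%) fell into 39 families of 2 or more, and 114 had no relative among the members. The 22 families of 3 or more held 180 peaks, and 14 of these families, with 114 peaks, contained peaks of a single protein. When the leading peak of each of the 22 was searched against mm9, at least 50% of its copies lay in the windows for 9 families and under 5% for 10. The repeated sites were thus partly DNA found only or mainly in a cluster, and partly DNA spread through the genome. Reads that fit several places equally well were assigned to 1 of them pseudo-randomly by the authors, so the calls at near-identical copies are not independent of each other.

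The clearest repeated site was that of Gm14406, a zinc finger protein encoded in the same cluster, on chromosome 2. The 200 bp printed above had 44 copies in mm9 at 80% identity or more, of which 23 lay in the window and 16 were called. These 16 were 98.5% to 100% identical to the leading copy, the 7 uncalled copies in the window were 92.5% to 94.5% identical, and all 16 copies of at least 95% identity in the genome lay in the window. The called copies were spread over the array, with a median distance of 124 kb between neighbours and a range of 89.4 to 703 kb. Each lay upstream of the nearest annotated gene start, by 7473 to 11340 bp with a median of 7992 bp. The folds ranged from 23.33 to 47.63 with a median of 35.97, on 40 to 76 tags. The groups of called and uncalled copies did not overlap in identity, which was measured from a called peak. The 4 separating positions were found by comparing the called with the uncalled copies, so they describe these copies and were not tested as part of a binding site. The T at position 28 was not shared by all Gm14406 members. Its leading peaks on chromosome 4 (fold 23.32) and, read on the opposite strand, on chromosome 13 (fold 51.52) have G there, as the uncalled copies do. Gm14406 had 38 members in all, of which 24 were on chromosome 2, 3 on chromosome 4 and 11 on chromosome 13. All 38 belonged to 1 family, whose leading chromosome 13 peak had 28668 copies in the genome, 5353 of them called for Gm14406.

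Zfp808, which is encoded on chromosome 13, bound a different repeated site of the chromosome 2 array. Its leading peak had 164 copies in the genome at 80% identity or more, and 17 of these were called for Zfp808. In the window it had 17 copies, and 12 of those were called, at 96.5% to 100% identity. The 16 copies of at least 95% identity found in the genome all lay in the window, and 4 of these were not called, so identity did not separate called from uncalled copies here. The 12 peaks were upstream of the nearest start by 3413 to 11056 bp, with a median of 7337.5 bp, and had folds of 20.24 to 33.85 on 110 to 191 tags. The same family contained peaks of Zfp58 and Gm14401 at some of these copies. Zfp617 also had 12 called copies of 1 sequence on chromosome 2, out of 50 copies in the window. In the genome this sequence had 13686 copies, and 336 of them were called for Zfp617. The 12 copies on chromosome 2 had folds of 21.22 to 27.01 and only 14 to 27 tags. Only 4 of the 8 copies of at least 95% identity were called for Zfp617, and called and uncalled copies overlapped in identity (91.0% to 100% and 81.5% to 95.4%). Peaks of Gm14406, Zfp808 and Zfp617 were called above an enrichment threshold, so a copy without a peak is not shown to be unbound.

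**Figure D4:**
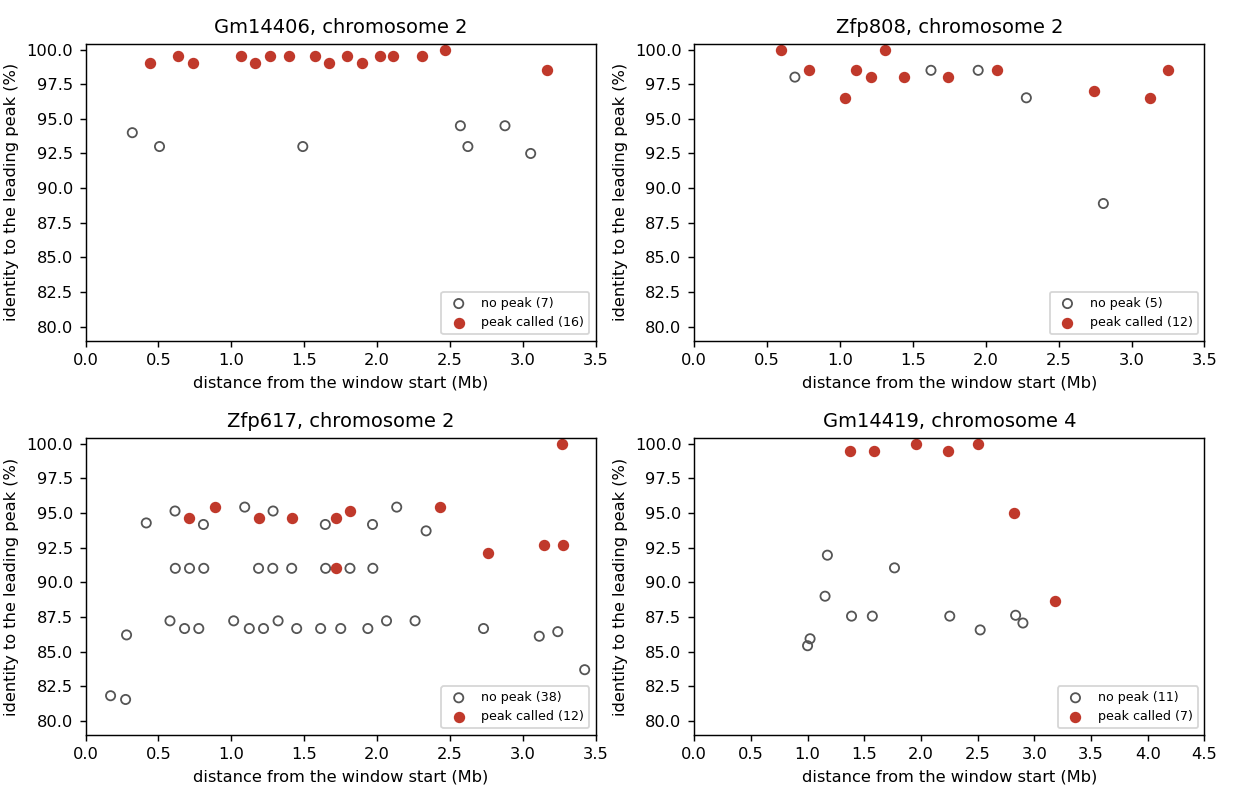
Copies of 4 leading peaks within a window, with distance from the window start in Mb on the horizontal axis and identity to the leading peak in percent on the vertical axis; filled red points are copies with a called peak of the named protein and open points are copies without one. Called and uncalled copies separate at 95% for Gm14406 on chromosome 2, whereas for Zfp808, Zfp617 and Gm14419 they overlap in part.

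Repeated sites on chromosome 4 varied widely in fold. Gm14419, a chromosome 2-encoded protein profiled in ES cells, had a site with 18 copies in the genome, all of them in the chromosome 4 window. Of these 7 were called, including all 6 of at least 95% identity, with folds of 16.03 to 57.31 on 41 to 204 tags. The uncalled copies were 85.4% to 92.0% identical, and the least similar called copy, at 88.7%, fell among them. Its leading copy lies 618 bp upstream of Gm13139, a zinc finger gene. Gm13157, encoded in this window, had 4 called copies of a site there, with folds of 42.66 to 83.76. The 4 copies of at least 95% identity in the genome all lay in the window. At 80% identity or more the genome held 470 copies, and 294 of them were called for Gm13157, so the site was not confined to the cluster. Zfp808 had 3 called copies of 3 in the window, with folds of 43.85, 47.76 and 51.82 on 790 to 863 tags. This site too was spread through the genome, with 528 copies, of which 395 were called for Zfp808. Zfp458, encoded on chromosome 13, had 3 called copies out of 11, all of which lay in the chromosome 4 window, with folds of 10.71 to 20.04. A family of 5 peaks on chromosome 4 held single peaks of Zfp458, Zfp595 and Zfp935 and 2 of Zfp457, with folds of 10.05 to 16.32. Of its 10 genome copies, 9 lay in the window.

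Gm13152, encoded in the chromosome 4 window, had GC-rich sites beside pseudogenes in its own cluster. In 2 families of 3 peaks each, its peaks lay 83 to 208 bp upstream of annotated starts, at the pseudogenes Gm13244, Gm13238, Gm13233, Gm13241, Gm13169 and Gm13146. Their GC content was 74.5% to 80%, against a median of 48.5% over the members on chromosome 4, and their folds ranged from 26.97 to 76.94. Outside the windows, 50.1% of the 5171 other peaks of Gm13152 lay within 1 kb of a start, and inside the windows 44.4% of 18 did, so the position was usual for this protein. On chromosome 2 another family of Gm13152 consisted of 3 identical copies, and all 3 were called with folds of 35.3, 51.75 and 59.67. They were the only copies in the genome at 80% identity or more over at least 160 bases. By the word count used for copy number, these peaks had 7 to 8 copies in the genome and 3 in the window. Shorter parts of the sequence thus recurred outside the window.

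The peaks with the highest fold within each window were single-copy in 4 of 9 cases, and the others had up to 27 copies. On chromosome 4 they were a Zfp961 peak in an intron of Gm572 (chr4:148027232-148027431, fold 129.56), a Gm13152 peak in an intron of Casz1, a zinc finger transcription factor gene (chr4:148210048-148210247, fold 96.34), and a Gm14412 peak in a coding exon of Angptl7, an angiopoietin-like gene (chr4:147870619-147870818, fold 95.44). These 3 sequences lay beyond Zfp933, the last profiled KRAB-ZFP gene of that window. A copy number of 1 held for these 3 and for the first on chromosome 13. On chromosome 13 they were a Gm13152 peak (chr13:67715171-67715370, fold 108.16), a Zfp961 peak in an intron of 4930441O14Rik (chr13:67835452-67835651, fold 102.35) and a Zfp808 peak (chr13:68202808-68203007, fold 88.61). On chromosome 2 they were a Zfp808 peak with 613 tags (chr2:174981327-174981526, fold 91.81), a Gm13051 peak (chr2:175429385-175429584, fold 85.89) and a Gm13154 peak (chr2:177513769-177513968, fold 83.63). Compared with all peaks of their proteins, these 9 members ranked between a fold percentile of 79.5 and one of 98.1.

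Few loci were shared by different KRAB-ZFPs. When overlapping peaks were merged, the members formed 300 loci, and 19 of them (6.33%) were called in 2 or more proteins, against 6.31% of all 48767 loci. The counts were 6 of 93 on chromosome 2, 7 of 119 on chromosome 4 and 6 of 88 on chromosome 13. Gm13247, Zfp808 and Zkscan17 shared 1 locus on chromosome 2 (chr2:174981300-174981560) and 1 on chromosome 4 (chr4:146559942-146560183), and the peaks of both loci belong to the same sequence family. At the first locus the fold was 91.81 for Zfp808 and 15.21 and 18.04 for the other two. Zfp808 and Gm14401 shared 2 loci on chromosome 2 and Zfp808 and Zfp58 shared another. On chromosome 4, Zfp457 and Zfp759, both encoded on chromosome 13, shared a locus in an intron of Mtor, the gene of a growth-controlling kinase (chr4:147879507-147879780). Of these 19 loci, 11 were shared only within 1 ChIP arrangement: 3 on chromosome 2, 4 on chromosome 4 and 4 on chromosome 13.

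A single locus among the members was called in 5 or more proteins, against 0.195% of all loci. It lay on chromosome 13 and was called in 9 proteins, all of them F9 HA samples, of which the list holds 30. Of these 9 proteins, 4 were encoded in the chromosome 13 window, as were 14 of the 30.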

How the data were processed

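ChIP-seq peaks were analysed from 1 deposited list of 53255 peaks, each with the name of 1 KRAB-ZFP. The authors mapped reads to mm9 with Bowtie or Bowtie2, called peaks with MACS (version 1.4.2) over input and over a FLAG or HA control (for the ES cell samples over input alone, and for 10 F9 samples over the Gm14296 control alone, per the labels), and scaled them to 200 bp around the summit; deepTools is also named in the submitters' processing notes. P-value and enrichment thresholds were relaxed by the authors for proteins with few peaks. The deposited values were the count of tags in the called peak, not scaled to library size, the score (minus 10 times log10 of the MACS p-value), the fold enrichment as a ratio over the control, and the false discovery rate in percent. Names were matched to sample labels, and 1 name with 244 peaks matched none. Members, lists and tests were chosen with earlier results of these data known.

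The Ensembl annotation supplied for mm9 gave gene positions; EtOHi1 was matched without regard to case, and Gm21082, Gm30910 and LOC102638055 had no position. A zinc finger gene was one encoding at least 3 fingers. Copy number was the median genome count of the 24-base words of a peak, tiles were 200 bp long (spaced 50000 bp apart outside the windows), and families and copies were found with blastn (version 2.17.0) at 80% identity, over 100 bases for families and 160 for genome copies. A copy was called when a peak of the protein lay within 200 bp of it. Peaks overlapping by at least 25% formed 1 locus. Differences between proteins were tested with two-sided permutation tests (100000 resamples, threshold 0.05, SciPy version 1.17.1) and Benjamini-Hochberg adjustment; the statistics were tested on simulated data. Named proteins were up to 5 per window with the highest share among those with at least 3 peaks and up to 5 with the most peaks, and those with a peak on their own gene. Named loci and genes were the 5 per window with the most proteins or peaks, and named peaks the 3 per window with the highest fold where an enrichment threshold was used. Others were named as examples after their values were seen. Alternatives were stricter peak settings, other windows, gene lists and copy numbers, and leaving out proteins or samples. The sequence of 1 locus on chromosome 13 is not reported here.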

Additional observations from a re-analysis of the deposited data

Results flagged for a closer look

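Within each ChIP arrangement of 4 to 10 samples, the shares of peaks in each window were searched for a protein standing apart from the rest by Dixon's criterion. Chance meets it in about 1 of 20 groups of normally distributed values. Many of these shares are 0 and come from lists of unequal size, so that rate does not hold here. Of 8 groups tested, 2 contained one, both among the 10 F9 samples that used the Gm14296 control. Gm14406 had 0.4222% of its peaks in the chromosome 2 window, where the next protein had 0.1927%, and these peaks were mainly the 16 called copies of its site. Gm14436 had 0.4717% of its peaks in the chromosome 4 window, where the next had 0.1794%, but this was 1 peak out of 212. Only 3 of the 10 proteins had any peak in that window.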

How the results depend on the processing

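No paired analysis was possible because the labels pair no samples by replicate number, each KRAB-ZFP having 1 sample; comparisons of peaks inside and outside the windows were made within proteins. No own-window difference passed the test under any of 15 alternatives per result, 6 of them added after the data were seen, although the sign of each changed under some. For chromosome 2, permutation within ChIP arrangement could not vary and says nothing. On chromosome 13 the own-window difference ranged from -0.0938 points without proteins with fewer than 200 peaks to 0.285 with false discovery rates of at most 5%. On chromosome 4 it ranged from -0.218 under the strictest peak settings to 0.0732 without the ES cell samples. On chromosome 2 it was 0.0330 without multi-copy peaks. Over all windows it was -0.148 without proteins with fewer than 200 peaks and 0.0507 without the ES cell samples. The difference in multi-copy share kept its direction and passed the test under 9 alternatives, but was 8.10 points (adjusted p = 0.138) at 10 copies and -7.03 (adjusted p = 0.126) at 100 copies. The zinc finger difference was -0.380 points (adjusted p = 0.00391) under the strictest settings, which left 0 finger-encoding members, so its sign was fixed and the test is void. The share of peaks in the windows fell to 0.523% when these were cut to the span of their zinc finger genes, by construction of a shorter window. On chromosome 4 this span still reached 148328998, past the last profiled KRAB-ZFP gene. Loci called in 2 or more proteins made up 2.69% of the members' loci under the strictest settings and 2.86% with false discovery rates of at most 5%. The shares over all loci under these settings were not worked out, so the fall cannot be read as particular to the members. Its cause was not tested. Library depth is unknown, the calls at near-identical copies share reads, and mappability limits what could be called there.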
